A study of Mus musculus with 12 samples.

Results

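The genes described here are the 3 receptor tyrosine kinases of the TAM family, Mertk, Axl and Tyro3, together with 3 secreted bridging proteins, Gas6, Pros1 and Mfge8. They were chosen by symbol from the deposited count tables, which hold 23284 gene symbols, and all 6 were found in the table of each tissue. RNA of spleen and of axillary lymph node was sequenced in mice deficient in both apoE and apoA-I (DKO) and in DKO mice that also overexpress human apoA-I (DKO/hA-I), with 3 libraries per group and 12 in all. Every animal carried the double deficiency, was 30 weeks old and ate a normal laboratory diet. By their codes, no animal gave both tissues. The labels used here name no strain, no sex and no promoter for the human apoA-I transgene. The comparisons ask how the genes differ between the genotypes within each tissue, and between the tissues.

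TAM receptors let phagocytes take up dying cells, a process called efferocytosis. Gas6 and protein S, the product of Pros1, hold on to phosphatidylserine exposed on a dying cell with one end and to a TAM receptor with the other, and need vitamin K dependent modification to do so. Gas6 binds all members of the receptor family, whereas protein S acts mainly through Mertk and Tyro3. Mfge8 also binds phosphatidylserine but is recognised by alpha v integrins rather than by TAM receptors. In lymphoid tissue, Mertk and Axl are known from macrophages and dendritic cells, and Mfge8 from follicular dendritic cells and from the macrophages that clear B cells in germinal centres.

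On the mouse build GRCm38, Mertk spans chr2:128698956-128802894 and Tyro3 spans chr2:119797733-119818104, both on the plus strand. Axl lies at chr7:25757273-25788705 and Mfge8 at chr7:79133768-79149060, both on the minus strand. Gas6 is at chr8:13465374-13494490 on the minus strand, and Pros1 at chr16:62854307-62929346 on the plus strand. Reads were summed over whole genes, and no source used here states how the counting treated strand. Tmem255b lies opposite Gas6, and an antisense gene model, Gm14011, lies opposite Mertk, so reads from these could have been counted with the member.

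The 250 bases before the start site are shown for Mertk and Mfge8, since they were the members that differed between the genotypes by the test used below. They are RefSeq sequences on GRCm38.p6, chr2:128698665-128698914 on the plus strand for Mertk and chr7:79149061-79149310 on the minus strand for Mfge8. All 6 members matched this table. Capitals mark matches on either strand to GGGCGG, the GC box, and to GAGGAA, the core bound by the myeloid factor PU.1.
Mertk: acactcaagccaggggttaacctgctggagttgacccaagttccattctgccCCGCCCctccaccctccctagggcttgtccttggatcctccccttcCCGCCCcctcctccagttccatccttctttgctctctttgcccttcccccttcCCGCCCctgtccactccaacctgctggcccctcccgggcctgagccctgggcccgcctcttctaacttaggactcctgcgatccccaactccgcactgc
Mfge8: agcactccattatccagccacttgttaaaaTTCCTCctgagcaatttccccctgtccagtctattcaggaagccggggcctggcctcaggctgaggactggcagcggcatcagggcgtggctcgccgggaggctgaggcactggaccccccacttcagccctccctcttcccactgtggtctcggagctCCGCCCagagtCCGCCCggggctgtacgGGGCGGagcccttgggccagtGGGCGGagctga
The Mertk window held 3 GC boxes and no GAGGAA, and the Mfge8 window held 4 GC boxes and 1 GAGGAA. Of 32851 mouse windows of the same length, 32.7% held GGGCGG and 23.3% held GAGGAA on either strand. TATAAA, in 12.4% of windows, and the E-box CACGTG, in 6.02%, occurred in none of the 6 members' windows.

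Libraries held 5911835 to 11950825 counts. Levels are given in CPM, counts scaled to library size by TMM over all 12 libraries, and 3 counts, taken as the floor, correspond to 0.251 to 0.507 CPM. Lymph node DKO replicate 2 stood apart: it had the fewest counts, and its summed lipid-laden macrophage markers were 1901.7 CPM against 7061.0 and 9844.4 CPM in the other DKO nodes. Of its listed mammary and skin epithelium markers, which summed to 73.7 CPM against at most 9.11 CPM in any other node, Epcam alone made up 72.2 CPM. Epcam is also among the listed dendritic cell markers, and Krt5, Krt14, Wap and Elf5 were at 0 in every DKO node. Lymph node results are therefore also given without it. The genotype labels could not be checked with the targeted genes, since both genotypes carry the deletions and human APOA1 was not analysed here. The pseudogene Rpl31-ps12 had 1002, 347 and 745 counts in DKO nodes and 1 in each DKO/hA-I node, but 2, 1 and 2 in spleens labelled DKO and 597, 776 and 789 in spleens labelled DKO/hA-I. The labels of 1 tissue may therefore be exchanged. Which tissue that would be is not known. Directions below are those of the labels. An exchange in spleen would turn the sign of each spleen genotype difference. An exchange in lymph node would turn the sign of each lymph node genotype difference, those of Mertk and Mfge8 among them. Comparisons over both tissues are also given with the spleen labels exchanged, an alternative chosen after the data were seen. Animals of DKO nodes share 75 as the middle number of their code and those of DKO/hA-I nodes have 76, 77 and 78, so what that number stands for and genotype cannot be told apart in lymph node. DKO spleens came from animals with 56, 57 and 55, and DKO/hA-I spleens from animals with 55, 57 and 57. What the number stands for and tissue therefore cannot be told apart either, in any comparison of the tissues below.

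In the lymph node, Mertk and Mfge8 stood 3.14-fold and 3.31-fold higher in DKO mice than in those with human apoA-I. Axl, Gas6 and Pros1 also had higher values in every DKO node than in any DKO/hA-I node, but did not pass the test, and Tyro3 overlapped. In the spleen no member passed the test, and the genotype difference of Mertk was larger in lymph node than in spleen. In bulk tissue, more cells of a type and more RNA per cell cannot be told apart. Of the 6 members, 2 passed the edgeR quasi-likelihood test at a Benjamini-Hochberg adjusted p under 0.05 over all genes in lymph node, both higher, where 3.95% of 14012 genes tested were called higher, 2.92% lower and 6.87% in either direction. Groups did not overlap for 5 members, all higher in DKO, against 15.6% of all genes higher and 30.5% in either direction. The members' median log2 fold change (DKO minus DKO/hA-I) was 0.82, beside 0.01 over all genes tested.

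**Figure D1:**
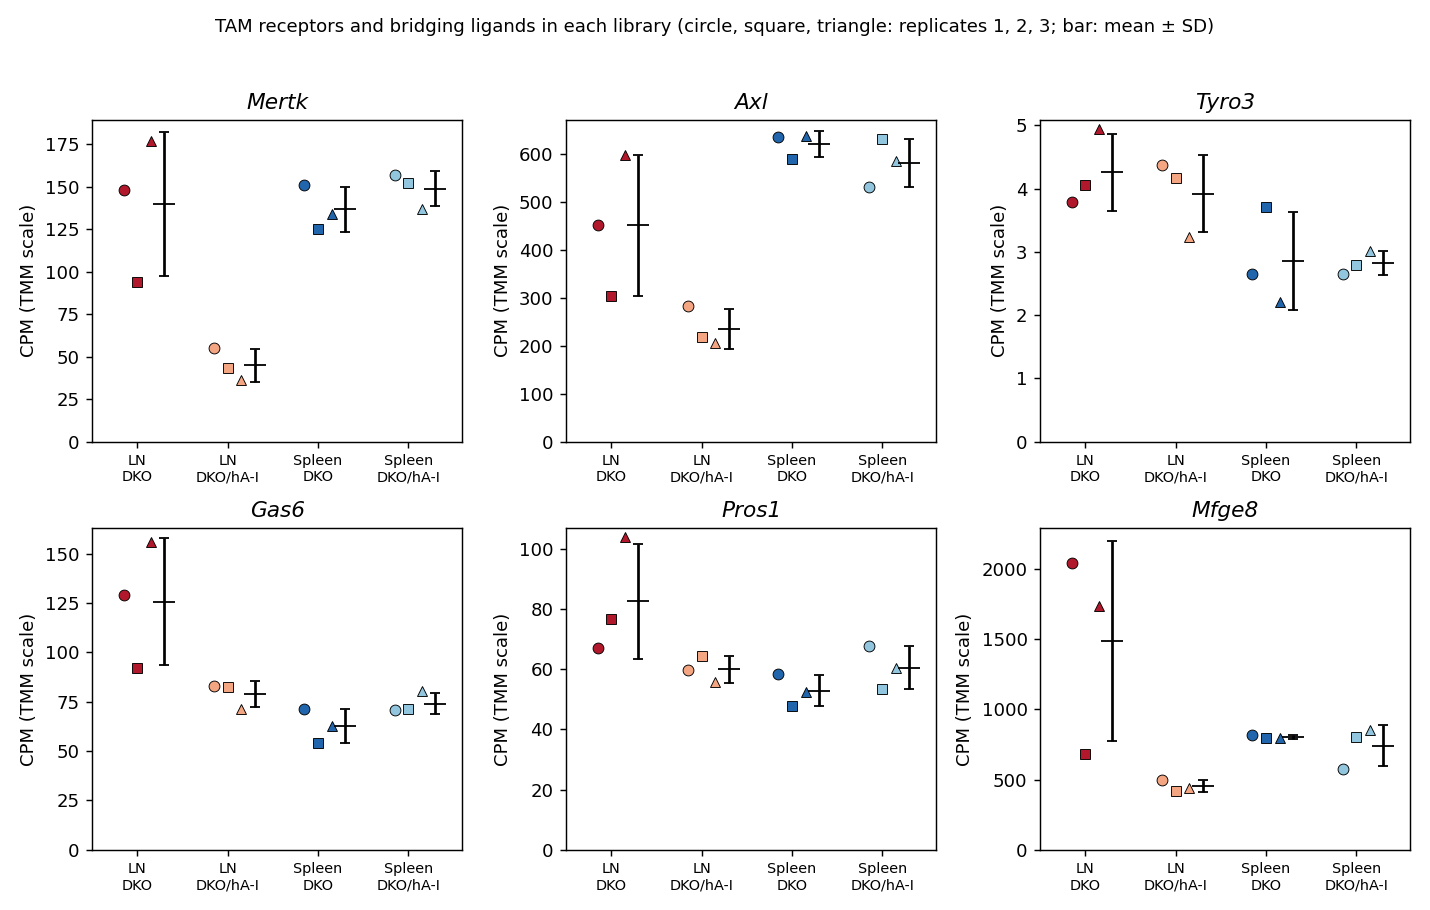
CPM of the 6 members in each library, on linear axes from 0, with circles, squares and triangles for replicates 1, 2 and 3 and bars for the mean ± SD of 3 libraries. Mertk stood at 36.4 to 55.2 CPM in the DKO/hA-I nodes and at 94.1 CPM or above in the libraries of the other groups, while Tyro3 stayed under 5 CPM in all 12 libraries.

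Mertk, the receptor most closely tied to uptake of apoptotic cells by macrophages, stood at 148, 94.1 and 177 CPM in replicates 1, 2 and 3 of the DKO nodes. In the DKO/hA-I nodes it stood at 55.2, 43 and 36.4 CPM. The lowest DKO node was thus above the highest DKO/hA-I node, and the DKO/hA-I nodes were also below all 6 spleens. Means were 139 ± 41.8 and 44.9 ± 9.56 CPM (SD, n = 3), and the log2 fold change was 1.65 ± 0.25 (SE, edgeR adjusted p = 0.0162). Without DKO replicate 2 it was 1.86 (edgeR adjusted p = 0.000546). The call was lost without DKO replicate 3 (log2 fold change 1.43, edgeR adjusted p = 0.0516), without DKO/hA-I replicate 2 (1.62, edgeR adjusted p = 0.0789) and without DKO/hA-I replicate 3 (1.50, edgeR adjusted p = 0.0546).

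Axl, a TAM receptor whose main ligand is Gas6, stood at 453, 304 and 599 CPM in the DKO nodes. The DKO/hA-I nodes held 283, 218 and 206 CPM. The groups did not overlap, but DKO replicate 2 came within a small margin of DKO/hA-I replicate 1. The log2 fold change was 0.95 ± 0.25 (95% interval 0.37 to 1.54) and missed the threshold (edgeR adjusted p = 0.0645). Without DKO replicate 2 it was 1.17 and passed (edgeR adjusted p = 0.00367).

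Tyro3, better known from the nervous system, was measured at 3.78, 4.05 and 4.94 CPM in the DKO nodes. The DKO/hA-I nodes had 4.37, 4.16 and 3.23 CPM, so that the groups overlapped. These values rest on 22 to 56 counts per library over both tissues. The log2 fold change was 0.13 ± 0.25 (95% interval -0.45 to 0.71, edgeR adjusted p = 0.785), and 0.16 without DKO replicate 2. The direction turned on leaving out replicate 3 of DKO (-0.01) or of DKO/hA-I (-0.00037).

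Among the ligands, Gas6 stood at 129, 92.1 and 156 CPM in the DKO nodes. The DKO/hA-I nodes held 83.1, 82.5 and 71.2 CPM, below every DKO node. The log2 fold change was 0.68 ± 0.19 (95% interval 0.23 to 1.13, edgeR adjusted p = 0.0787). Leaving out DKO replicate 2 raised it to 0.86 and past the threshold (edgeR adjusted p = 0.00349).

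Pros1 encodes protein S, which is also an anticoagulant in plasma. It stood at 67, 76.6 and 104 CPM in the DKO nodes and at 59.8, 64.4 and 55.6 CPM in the DKO/hA-I nodes. The groups were separate by a narrow gap, and DKO replicate 3 stood well above the rest. The log2 fold change was 0.47 ± 0.18 (95% interval 0.06 to 0.88, edgeR adjusted p = 0.149), and 0.52 without DKO replicate 2 (edgeR adjusted p = 0.0938).

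Mfge8 had the highest level of the members per length, as given below in CPM per kb. It stood at 2040.4, 683 and 1735.8 CPM in the DKO nodes, so that replicate 2 was far below the others. The DKO/hA-I nodes held 499, 421 and 437 CPM, all under the lowest DKO node. The log2 fold change was 1.73 ± 0.37 (edgeR adjusted p = 0.0359), and 2.07 without DKO replicate 2 (edgeR adjusted p = 0.000115). Leaving out any other node ended the call, with edgeR adjusted p = 0.0783 and 0.116 without DKO replicates 1 and 3, and of 0.103, 0.142 and 0.125 when DKO/hA-I replicate 1, 2 or 3 was the one left out.

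Other tools called other numbers of members in lymph node. DESeq2 called 4, Mertk, Mfge8, Axl and Gas6, and limma voom called 1. In the authors' deposited table, Mertk (q = 1.18e-05) and Mfge8 (q = 0.0381) were marked as different in lymph node. Axl (q = 0.156) and Gas6 (q = 0.348) were not marked there. The deposited log2 ratios of lymph node ran against those of edgeR across genes (r = -0.993). With their sign turned they were 1.66 for Mertk, 1.62 for Mfge8, 0.93 for Axl and 0.62 for Gas6. They are therefore no evidence of direction.

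In the spleen, Mertk stood at 151, 125 and 134 CPM in DKO and at 157, 152 and 137 CPM in DKO/hA-I animals. Axl stood at 636, 591 and 639 CPM against 531, 631 and 586 CPM. Tyro3 stood at 2.65, 3.71 and 2.2 CPM against 2.65, 2.79 and 3.02 CPM. For each receptor the genotypes overlapped. Gas6 had 71.6, 54.1 and 62.5 CPM in DKO spleens and 70.6, 71.5 and 80.3 CPM in DKO/hA-I spleens. For Pros1 the values were 58.4, 47.9 and 52.4 CPM against 67.7, 53.5 and 60.3 CPM. Mfge8 had 815, 796 and 794 CPM in DKO and 577, 800 and 849 CPM in DKO/hA-I spleens. The ligands overlapped between genotypes too, and the lowest Mfge8 value came from a single library, DKO/hA-I replicate 1.

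No member was called by edgeR in spleen, where 0.00714% of 14009 genes tested were called. None had an unadjusted p under 0.05, which 4.4% of all genes had, and neither DESeq2 nor limma voom called any. No member had groups that did not overlap, against 10.6% of all genes. Their log2 fold changes lay between -0.25 ± 0.13 (Gas6, 95% interval -0.54 to 0.04) and 0.10 ± 0.14 (Mfge8, -0.22 to 0.43). For Mertk the value was -0.13 ± 0.11, with an interval of -0.38 to 0.12. The interval of Tyro3 was the widest, from -0.57 to 0.59. In the authors' deposited table no member was marked in spleen, each with q = 1.

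**Figure D2:**
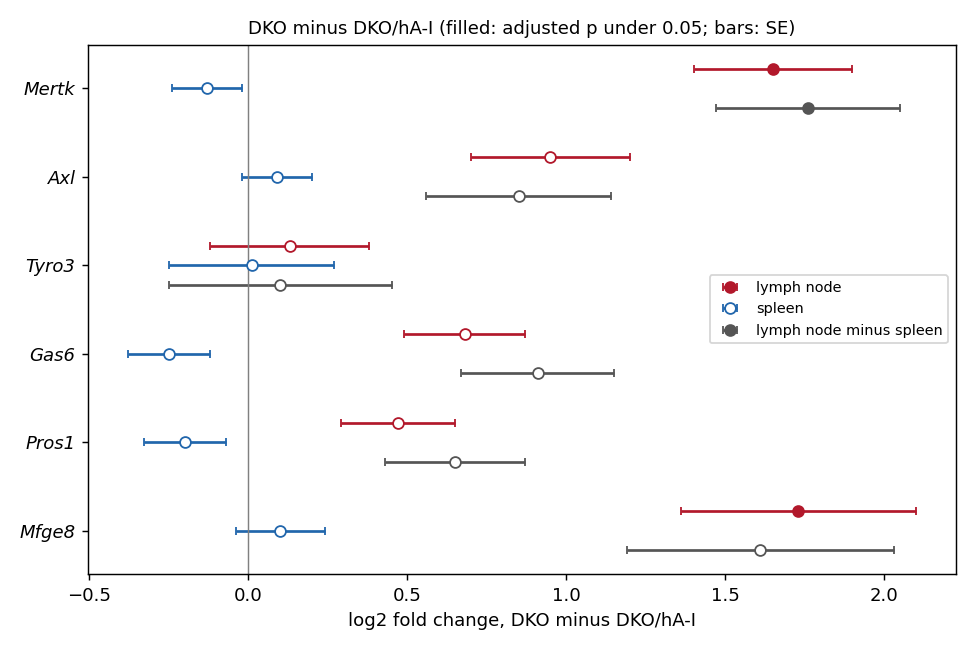
Log2 fold change DKO minus DKO/hA-I of each member in lymph node and spleen, and the lymph node value minus the spleen value, with bars for the SE and filled points for an edgeR adjusted p under 0.05. Mertk and Mfge8 in lymph node, at 1.65 and 1.73, and the lymph node minus spleen value of Mertk, at 1.76, are filled, and the spleen values lie between -0.25 and 0.10.

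The genotype difference itself was compared between the tissues in 1 fit of all 12 libraries, in which 2.04% of 14608 genes tested were called with a larger value in lymph node, 1.29% with a smaller one and 3.33% in either direction. Mertk was the only member called: its genotype log2 fold change was 1.76 ± 0.29 larger in lymph node than in spleen (95% interval 1.13 to 2.38, edgeR adjusted p = 0.00771). Without DKO node replicate 2 this was 1.97 (edgeR adjusted p = 9.21e-05). Mertk passed under each of the 20 alternatives tried, with values from 1.52, with the spleen labels exchanged (edgeR adjusted p = 0.014), to 1.97. That exchange gave 1.83 for Mfge8 (edgeR adjusted p = 0.0286), 1.04 for Axl (0.0553), 0.43 for Gas6 (0.312) and 0.27 for Pros1 (0.511). The difference was 1.61 ± 0.42 for Mfge8 (edgeR adjusted p = 0.0546) and 0.91 ± 0.24 for Gas6 (edgeR adjusted p = 0.0593). For Axl it was 0.85 ± 0.29 (edgeR adjusted p = 0.137), and Pros1 had 0.65 ± 0.22. Without DKO node replicate 2, Mfge8 (1.95), Gas6 (1.09) and Axl (1.06) passed as well, with edgeR adjusted p of 9.21e-05, 0.00244 and 0.00592. Tyro3 had 0.10 ± 0.35 and turned to -0.02, -0.01 and -0.06 without DKO node replicate 3, DKO/hA-I node replicate 3 or DKO spleen replicate 3.

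Between the tissues, the receptors Axl and Mertk were lower in lymph node than in spleen and the ligands Gas6 and Pros1 were higher, as averaged over the genotypes. Of the 6 members, 3 were called higher and 2 lower in lymph node, where 17.5% of 14608 genes were called higher, 17.9% lower and 35.4% in either direction. Without DKO node replicate 2, 5 members were called as well. The log2 difference (lymph node minus spleen) was -0.88 ± 0.14 for Axl (edgeR adjusted p = 0.000345) and -0.85 ± 0.14 for Mertk (edgeR adjusted p = 0.000513). Gas6 was higher by 0.55 ± 0.12 (edgeR adjusted p = 0.00331). Tyro3 differed by 0.53 ± 0.17 (edgeR adjusted p = 0.0321) and Pros1 by 0.31 ± 0.11 (edgeR adjusted p = 0.0451). Both calls depended on single libraries: that of Tyro3 was lost on leaving out any of 7 libraries (edgeR adjusted p = 0.0556 to 0.081), and that of Pros1 on leaving out any of 7 libraries (0.0715 to 0.112) and in other alternatives. The libraries common to both were DKO node replicate 3, DKO/hA-I node replicates 1 and 2, DKO spleen replicate 3 and DKO/hA-I spleen replicate 2. For Mfge8 the difference was 0.09 ± 0.21 (95% interval -0.36 to 0.54), and -0.06 without DKO node replicate 1.

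The tissues were also compared within each genotype. In DKO mice the ligands were higher in lymph node: Gas6 by 1.00 ± 0.17 (edgeR adjusted p = 0.000906), Pros1 by 0.64 ± 0.16 (edgeR adjusted p = 0.0107) and Mfge8 by 0.89 ± 0.29 (edgeR adjusted p = 0.0451), where 11.3% of all genes were called higher, 11.5% lower and 22.8% in either direction. The Mfge8 call was lost in 15 of 21 alternatives, among them leaving out any single library other than DKO node replicate 2 (edgeR adjusted p = 0.0507 to 0.173). That of Pros1 was lost without DKO node replicate 3 (edgeR adjusted p = 0.053) and when only the 6 DKO libraries were fitted (0.0598). Mertk and Axl were not called in DKO mice, at 0.03 ± 0.20 (95% interval -0.40 to 0.47) and -0.46 ± 0.20 (-0.90 to -0.02). Axl passed without DKO node replicate 3 (-0.71, edgeR adjusted p = 0.0208). In DKO/hA-I mice the receptors were lower in lymph node, Mertk by -1.73 ± 0.21 (edgeR adjusted p = 5.62e-05) and Axl by -1.31 ± 0.20 (edgeR adjusted p = 0.000429), where 11.8% of all genes were called higher, 14% lower and 25.7% in either direction. Gas6 and Pros1 were then at 0.09 ± 0.17 and -0.01 ± 0.16, and Mfge8 was at -0.71 ± 0.29 (edgeR adjusted p = 0.0964). That Mfge8 value passed without DKO node replicate 2 (edgeR adjusted p = 0.0016) and when only the 6 DKO/hA-I libraries were fitted (-0.72, edgeR adjusted p = 0.00428). With the spleen labels exchanged, DKO nodes differed from spleen by -0.09 for Mertk, 0.76 for Gas6, 0.45 for Pros1 (edgeR adjusted p = 0.0658) and 1.00 for Mfge8. The DKO/hA-I nodes then differed by -1.60 for Mertk, -1.40 for Axl, 0.33 for Gas6, 0.18 for Pros1 and -0.83 for Mfge8 (edgeR adjusted p = 0.0478). The test of whether the tissue difference depends on genotype is the one given above, and among the members it passed for Mertk.

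**Figure D3:**
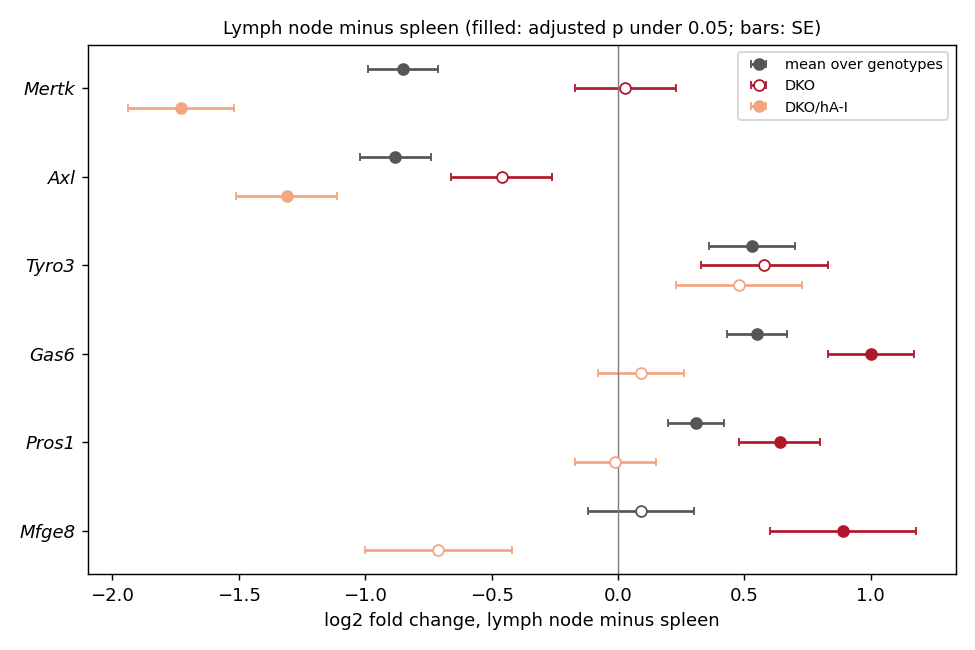
Log2 difference lymph node minus spleen of each member, averaged over the genotypes and in each genotype, with bars for the SE and filled points for an edgeR adjusted p under 0.05. Mertk lies at 0.03 in DKO and at -1.73 in DKO/hA-I mice, and Gas6 at 1.00 and 0.09.

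Levels were also compared between members per kilobase of exon, as CPM per kb. Mfge8 was highest and Axl the next in all groups, and Tyro3 was lowest. In DKO nodes the levels were 699 ± 335 CPM per kb for Mfge8, 106 ± 34.5 for Axl, 49.3 ± 12.6 for Gas6, 32.4 ± 9.72 for Mertk, 25 ± 5.77 for Pros1 and 0.882 ± 0.126 for Tyro3. There the ranges of Gas6 and Mertk, and of Mertk and Pros1, overlapped. In DKO/hA-I nodes Mertk, at 10.4 ± 2.22 CPM per kb, stood below Pros1 at 18.1 ± 1.33, and no neighbours in the order overlapped. In spleen Mertk stood above Gas6 in both genotypes, at 31.7 ± 3.08 against 24.6 ± 3.44 CPM per kb in DKO and 34.5 ± 2.44 against 29.1 ± 2.1 in DKO/hA-I animals, again without overlap.

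The ratio of Axl counts to Mertk counts does not depend on the scaling of libraries. It was singled out after its values were seen and is given without a test. The ratio was 3.07, 3.22 and 3.39 in the DKO nodes and 5.12, 5.07 and 5.66 in the DKO/hA-I nodes. DKO replicate 2, which had the lowest level of either receptor in its group, lay between the other DKO nodes in this ratio. In spleen, by the labels, the order was the opposite, with 4.22, 4.73 and 4.77 in DKO and 3.38, 4.17 and 4.29 in DKO/hA-I animals, and the groups overlapped there. With the spleen labels exchanged the order of this ratio would be the same in both tissues. For Mfge8 counts per Gas6 count, given below, the exchange would make the order opposite between the tissues. Neither ratio is a test of the labels. Of all TAM receptor counts, Mertk made up 22.6 to 24.4% in DKO nodes, 14.8 to 16.2% in DKO/hA-I nodes and 17.3 to 22.7% in spleens, while Tyro3 made up at most 1.57% in any library.

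**Figure D4:**
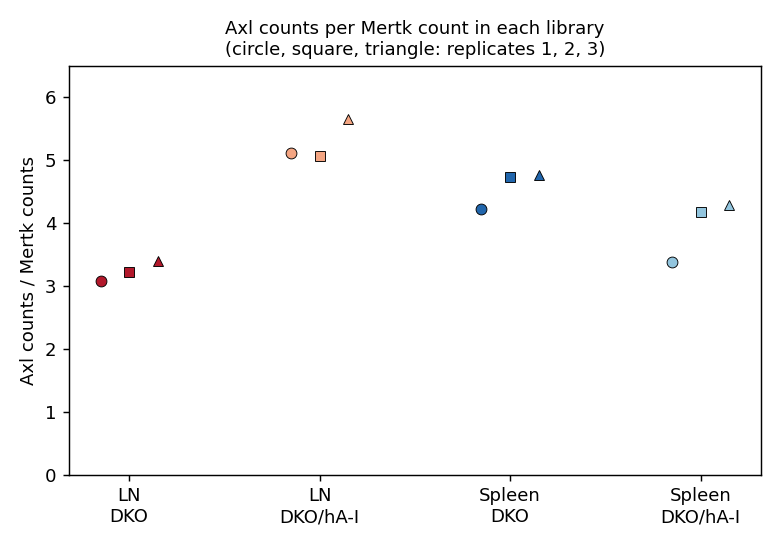
Axl counts divided by Mertk counts in each library, on a linear axis from 0, with circles, squares and triangles for replicates 1, 2 and 3. DKO nodes lie between 3.07 and 3.39 and DKO/hA-I nodes between 5.07 and 5.66, with the spleens from 3.38 to 4.77.

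Ratios with the ligands were likewise given without a test. Mfge8 had 13.8, 7.26 and 9.83 counts per Mertk count in DKO nodes and 9.03, 9.79 and 12 in DKO/hA-I nodes, which overlapped. In spleens this ratio was lower than in any node, from 3.68 to 6.38. Per Gas6 count there were 15.9, 7.42 and 11.1 Mfge8 counts in DKO nodes and 6, 5.1 and 6.14 in DKO/hA-I nodes, which did not overlap. In spleens they were 11.4, 14.7 and 12.7 in DKO and 8.17, 11.2 and 10.6 in DKO/hA-I animals, which also did not overlap and were higher in DKO by the labels. Gas6 and Pros1, whose proteins share their domain structure, stayed within 1.04 to 1.92 Gas6 counts per Pros1 count over all libraries.

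The genes whose log2 CPM profile lay nearest to that of each member over the 12 libraries were found by the root mean square difference after centring, among 13072 genes. For Mertk they were Cd300a (0.181), an inhibitory receptor for phosphatidylserine, Ncs1 (0.195), a calcium sensor, and Slc11a1 (0.207), a metal transporter of phagosomes. The profile of Mertk itself spanned 2.27 on the log2 scale. For Axl they were Gpr35 (0.156), Mgat3 (0.166) and Tns3 (0.171). For Mfge8 they were Ttyh2 (0.131), the lysosomal nuclease Pld3 (0.168) and Vat1 (0.18). Lix1l (0.0822), Mdfic (0.107) and Vwa5a (0.119) were nearest to Gas6, and Rnf13 (0.0999), Kdelc2 (0.104) and Fkbp7 (0.108) to Pros1. For Tyro3, whose values rest on few counts, they were Rsph3b (0.119), Pkm2 (0.14) and Pepd (0.145). These distances are a description of libraries that share tissue and genotype.

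Other genes of efferocytosis moved with genotype in lymph node in the same comparison. Of 28 listed receptors and bridges other than the members, 26 passed the filter on low counts, and of these 13 were higher and 1 lower in DKO nodes, with a median log2 fold change of 1.26. Over all genes tested, 3.95% were called higher and 2.92% lower. The 14 calls became 8, 19 and 8 without DKO replicates 1, 2 and 3, and 1, 1 and 3 when DKO/hA-I replicate 1, 2 or 3 was left out. The complement component C1qa, a bridge that binds dying cells, stood at 629 ± 255 against 156 ± 27.9 CPM (log2 fold change 2.02 ± 0.30, edgeR adjusted p = 0.0147). Thbs1, which encodes the bridging protein thrombospondin, stood at 117 ± 23.1 against 40.6 ± 2.93 CPM (1.53 ± 0.17, edgeR adjusted p = 0.00811). The receptor Cd93 stood at 123 ± 32.2 against 47.8 ± 5.47 CPM (1.38 ± 0.20, edgeR adjusted p = 0.0141). Itgav and Itgb5, integrin chains through which Mfge8 is recognised, rose by 0.74 ± 0.17 and 2.27 ± 0.37 (edgeR adjusted p = 0.0413 and 0.0185). The integrin chain Itgb3, of the same list, was not called, at 87 ± 27.7 against 69.4 ± 10.8 CPM. The other called members were Trem2, Anxa1, C1qb, C1qc, Cd300a, Lgals3, Lrp1 and Cd300lb. Timd4, a phosphatidylserine receptor of resident macrophages, fell from 201 ± 42.9 CPM in DKO/hA-I to 56.5 ± 21.7 CPM in DKO nodes (-1.83 ± 0.31, edgeR adjusted p = 0.0205).

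**Figure D5:**
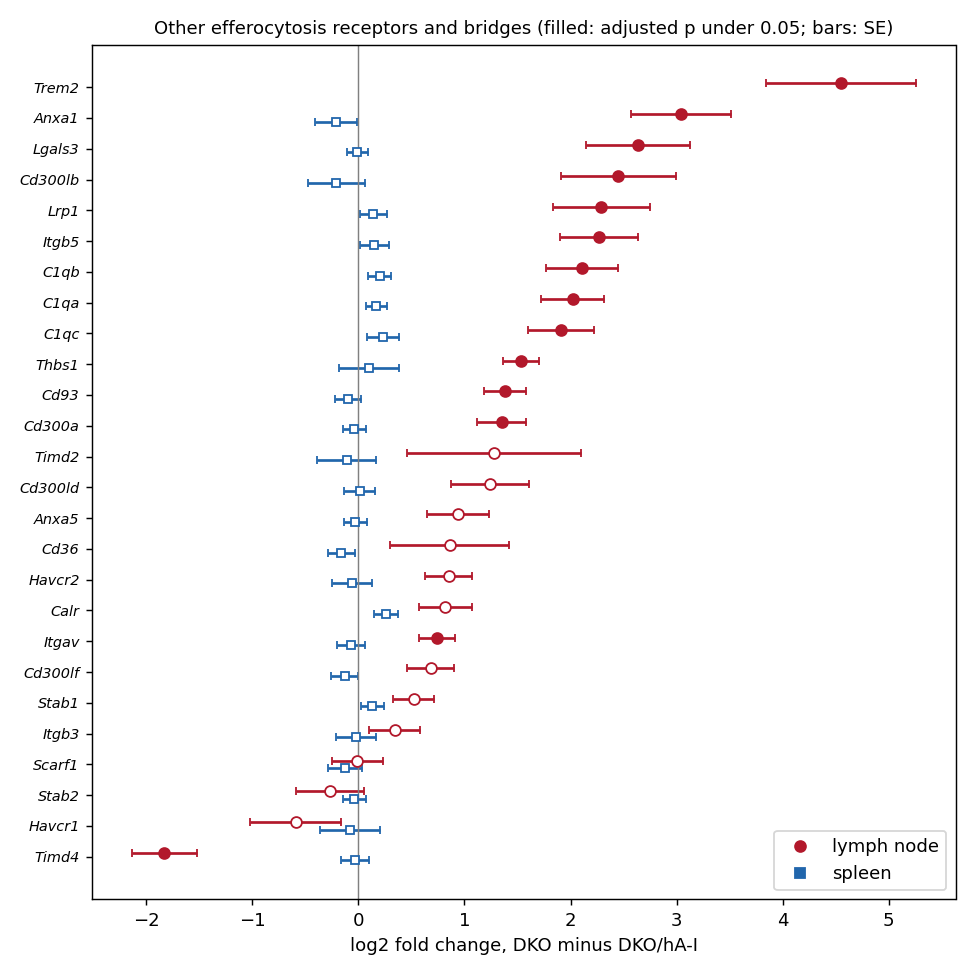
Log2 fold change DKO minus DKO/hA-I of the other efferocytosis receptors and bridges in lymph node and spleen, with bars for the SE and filled points for an edgeR adjusted p under 0.05. In lymph node 13 genes are filled above 0 and Timd4 below it, and no spleen point is filled.

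For the steps after binding, none of 18 engulfment signalling genes was called in lymph node by edgeR or limma voom, 4 had an unadjusted p under 0.05 (25.1% of all genes had) and DESeq2 called 2. Without DKO replicate 2 edgeR called 4, and in the fit of all 12 libraries 2. The lowest p-values there belonged to Abr, at 0.59 ± 0.15 (edgeR adjusted p = 0.0628), and Elmo2, at 0.46 ± 0.13 (edgeR adjusted p = 0.0814). Over all genes tested in lymph node, 3.95% were called higher and 2.92% lower. Of 21 genes for digestion and metabolism of engulfed cells, 3 were higher: the lysosomal membrane gene Lamp2 (0.93 ± 0.17, edgeR adjusted p = 0.0227), the chloride transporter Slc12a4 (0.79 ± 0.16, edgeR adjusted p = 0.031) and the lysosomal lipase Lipa (1.85 ± 0.38, edgeR adjusted p = 0.0336). These 3 calls became 1, 10 and 0 without DKO replicates 1, 2 and 3, and 0 without any one DKO/hA-I node. Of 12 genes for phosphatidylserine exposure and find-me signals, S1pr1, a receptor for sphingosine-1-phosphate, was lower (-0.75 ± 0.14, edgeR adjusted p = 0.0239) and none was higher, and 1 call of 12 is near the 6.87% of all genes called in either direction. In this list 5 genes were called without DKO replicate 2, and 0 without DKO replicate 3 or without any one DKO/hA-I node.

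Where 3.95% of all genes were called higher in DKO nodes, 4 of 9 tested genes for inhibitory signals on engulfment were. They were Lilrb4 (1.89 ± 0.29, edgeR adjusted p = 0.0165), Sirpa, the receptor for the signal carried by Cd47 (1.50 ± 0.26, edgeR adjusted p = 0.021), Cd300a (1.35 ± 0.23, edgeR adjusted p = 0.0213) and Siglece. Cd300a belongs to the receptor list as well. The 4 calls became 1 without DKO replicate 3 and 0 without any one DKO/hA-I node, and stayed at 4 without DKO replicate 2. Among 18 genes for signalling below TAM receptors, shedding and cofactors, 1 was higher and 1 lower, near 3.95% and 2.92% of all genes. The kinase gene Akt1 was higher (0.50 ± 0.12, edgeR adjusted p = 0.0467) and Tob1, an antiproliferative regulator, was lower (-1.61 ± 0.35, edgeR adjusted p = 0.0388). These 2 calls became 4 without DKO replicate 2, fell to 1 on leaving out DKO/hA-I replicate 3, and were 0 without any of the other nodes or with limma voom. Ggcx, the carboxylase that makes Gas6 and protein S able to bind phosphatidylserine, stood at 25.2 ± 10.1 against 19.4 ± 3.58 CPM (0.38 ± 0.29, edgeR adjusted p = 0.471). It was chosen after its values were seen, for its role in the ligands' maturation.

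Over the 6 lists together, 20 of 103 tested genes were higher and 3 lower in lymph node, which is 22.3% beside 6.87% of all genes. The lists were chosen with earlier results of these data known, so these shares are a description only. The count of 23 depended on which nodes were fitted: it was 13, 45 and 9 without DKO replicates 1, 2 and 3. Leaving out DKO/hA-I replicate 1, 2 or 3 gave 1, 1 and 4. In spleen none of 103 was called by edgeR, DESeq2 or limma voom, and 2 had an unadjusted p under 0.05, which 4.4% of all genes had. Blocking by animal code gave 1 edgeR call, in the digestion list. Calr, a bridge at the cell surface, had the lowest spleen p of the receptor list, at 0.26 ± 0.11 (edgeR adjusted p = 0.929). The genotype difference was larger in lymph node than in spleen for 17 of 104 genes, beside 2.04% of all genes. It was smaller for 2, beside 1.29% of all genes, and the latter were Timd4 (-1.82 ± 0.35, edgeR adjusted p = 0.0171) and Tob1. The count of 19 became 36 and 9 without DKO node replicates 2 and 3, 4 without DKO/hA-I node replicate 2, and 8 and 6 without DKO spleen replicates 2 and 3. It was 11, 5 and 10 without DKO/hA-I spleen replicates 1, 2 and 3, and 11 with limma voom. Between the tissues, 7 of 27 other receptors and bridges were higher and 9 lower in lymph node as averaged over the genotypes, beside 17.5% and 17.9% of all genes, with Stab2, a scavenger receptor of sinus endothelium, at -1.94 ± 0.19 (edgeR adjusted p = 3.96e-06).

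Markers of several cell types moved with genotype in lymph node, where 3.95% of all genes were called higher and 2.92% lower. Which cells held the members' RNA was not measured. Macrophage markers summed to 6153.0 to 10283.4 CPM in DKO nodes and 3622.9 to 4500.0 CPM in DKO/hA-I nodes, with 7 of 11 called higher and 4 not called. Their sum was 4127.3 to 4847.0 CPM in DKO and 3635.6 to 4293.9 CPM in DKO/hA-I spleens, with none called. Of the macrophage sums in nodes, Lyz2 alone averaged 4930.9 ± 787 CPM in DKO and 2845.0 ± 311 CPM in DKO/hA-I mice. Lipid-laden macrophage markers summed to 1901.7 to 9844.4 CPM in DKO nodes, 799 to 1039.0 CPM in DKO/hA-I nodes and 453 to 521 CPM in spleens, and 9 of 10 were called higher in DKO nodes. C1qa, C1qb, C1qc, Trem2 and Lgals3 belong both to these marker lists and to the receptor list. Csf1r, which marks macrophages in general, stood at 496 ± 89.8 against 361 ± 44.9 CPM in lymph node (log2 fold change 0.47 ± 0.17, edgeR adjusted p = 0.139).

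Sinus and marginal zone macrophage markers, among them Timd4, went the other way as a sum, with 563 to 677 CPM in DKO and 1288.3 to 1913.8 CPM in DKO/hA-I nodes and 4 of 6 called lower. Mrc1, of the same list, had a higher mean in DKO nodes, 141 ± 54.9 against 68.8 ± 36.5 CPM, and was not called. Dendritic cell markers summed to 909 to 2239.1 CPM against 644 to 830 CPM, with 2 of 10 called higher, Sirpa and Itgax. Means of Sirpa were 822 against 293 CPM and of Itgax 507 against 101 CPM, while the median log2 fold change of the 10 markers was -0.16. Follicular dendritic cell markers, for the cells best known for Mfge8, summed to 2477.4 to 2609.0 CPM against 2140.2 to 2433.1 CPM, with 3 of 8 called higher, Cxcl13, Fcgr2b and Clu. Cr2, of that list, stood at 276 ± 53.7 against 419 ± 43.2 CPM (log2 fold change -0.59 ± 0.18, edgeR adjusted p = 0.0867). Fcer2a, of the same list, was also lower in mean, at 191 ± 73.2 against 446 ± 93.1 CPM, and was not called. The sums thus join genes that moved in opposite directions. B cell markers summed to 2031.4 to 3158.5 CPM against 3288.9 to 3569.6 CPM, with none of 7 called. Which cells the values of Cr2 and Fcer2a came from was not tested. Reticular stroma markers summed to 1579.1 to 2670.8 CPM against 1095.9 to 1175.0 CPM, with 4 of 10 called higher. Adipocyte markers summed to 109 to 160 CPM against 836 to 2503.4 CPM, with all 9 called lower. Endothelial markers summed to 733 to 821 CPM against 1041.8 to 1153.6 CPM, with 3 of 9 called lower. Lyve1 is counted both there and among the called sinus and marginal zone macrophage markers. The part of these differences in the members' values was not tested.

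Markers also separated the tissues. Red pulp macrophage markers summed to 3291.3 to 3623.4 CPM in spleens and 416 to 1236.2 CPM in nodes. Averaged over the genotypes, all 6 measured ones were called lower in lymph node. In DKO mice alone 5 were. Cd5l was not, at 577 ± 107 CPM in DKO nodes and 609 ± 83.9 CPM in DKO spleens. On the average over genotypes, all 8 T cell markers were called higher in lymph node, and all 9 platelet and all 9 erythroid markers lower. Their part in the members' tissue differences was not tested. The labelled tissues thus carried the defining markers of spleen, such as Spic at 104 ± 3.83 and 107 ± 3.81 CPM in the DKO and DKO/hA-I spleens and 22.1 ± 5.65 and 25.6 ± 6.1 CPM in the corresponding nodes.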

How the data were processed

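The deposited tables, 1 per tissue, give each library's raw read counts, per the file headers. Per the submitters' processing notes, Trimmomatic, Bowtie, TopHat and Cuffdiff were used with GRCm38 (mm10). No source used here names versions, the counting program or its treatment of strand. The deposited log2 ratios, p-values and q-values are the authors' comparison. The header does not say which genotype came first. The sign of the ratios was therefore read from the correlation with edgeR across genes (r = -0.993 in lymph node, 0.945 in spleen). The lymph node ratios were turned in sign and the spleen ratios were not. This reading is no independent evidence of direction, and whether it bears on the genotype labels was not tested. The authors' group FPKM values, 4 columns, were not used.

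Tests on counts used R 4.3.3 and edgeR 4.0.16 (filterByExpr with minimum count 10 and total 15, TMM, quasi-likelihood test, robust), per tissue for genotype and over all 12 libraries for tissue and interaction, with Benjamini-Hochberg adjustment over all genes. DESeq2 1.42.0 and limma 3.58.1 (voom) were alternatives, with other scalings, no filter, each library left out and, chosen after the data were seen, the spleen genotype labels exchanged. Steps were tested on simulated data. Chi-square per degree of freedom between libraries of a group was 10.0 to 59.9, so none was a copy. Animal codes are unique to a library, and p-values reflect the spread among libraries. Floors cover counting error only. Positions come from GENCODE vM21.

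Members and lists were chosen with earlier results of these data known. The text names all members, up to 3 called genes per list and direction (otherwise 2 of lowest p), and the 3 nearest profiles per member. Other names were chosen after their values were seen. Of 109 listed pathway genes, 108 were found and Pirb was not.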

Additional observations from a re-analysis of the deposited data

Results flagged for a closer look

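The genotype difference of Mertk differed between the tissues. Its log2 fold change, DKO minus DKO/hA-I, was 1.76 ± 0.29 larger in lymph node than in spleen by the interaction term of the 12-library fit (edgeR adjusted p = 0.00771). Every DKO node was above every DKO/hA-I node, while the spleens of the 2 genotypes overlapped. Macrophage marker sums moved with it, 6153.0 to 10283.4 against 3622.9 to 4500.0 CPM in the nodes, where Lyz2 alone averaged 4930.9 against 2845.0 CPM. The part of these sums was not tested. The direction is that of the labels, and Rpl31-ps12 differed in opposite directions in the tissues. With the spleen labels exchanged the value was 1.52 (edgeR adjusted p = 0.014). An exchange in lymph node instead was not fitted and would turn the sign of that value. The middle number of the animal codes differs between the tissues throughout, so what it stands for cannot be told apart from tissue. Groups of 3 libraries were not tested for single outlying values.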

How the results depend on the processing

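The number of members called in lymph node, 2, became 4 with DESeq2 and in the fit of all 12 libraries, 1 with limma voom and with a replicate block, and ran from 0 to 4 when a library was left out. For the difference of genotype effect between tissues, the 1 member called became 3 with DESeq2, 2 with the spleen genotype labels exchanged, and 1 to 4 with a library left out. Averaged over genotypes, 5 members separated the tissues, and 3 to 5 with a library left out. In DKO mice 3 members became 1 when only the 6 libraries of the genotype were fitted, and 2 to 3 with a library left out. In DKO/hA-I mice the fit of the 6 libraries called 3, with Mfge8 gained. In spleen, members called stayed at 0 in all alternatives.

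Replicate numbers did not pair the samples (r of same-numbered deviations from -0.141 to 0.108 over 12 pairs). The replicate block lost the lymph node call of Mfge8 (edgeR adjusted p = 0.0561) and changed all genes called there from 962 to 438, and for the difference of genotype effect between tissues from 487 to 299.

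Directions turned for values near 0. Leaving out DKO node replicate 3 made Tyro3 in lymph node -0.01, and leaving out DKO/hA-I node replicate 3 made it -0.00037, and its highest value with a library left out was 0.21. Tyro3 in spleen was -0.03 with upper quartile scaling, -0.01 with limma voom and with the replicate block, and -0.21 without DKO replicate 2. Leaving out DKO/hA-I spleen replicate 1 made it -0.02, and Mfge8 -0.04. The highest values in spleen with a library left out were 0.17 for Tyro3 and 0.21 for Mfge8. The difference of genotype effect between tissues of Tyro3 was -0.02, -0.01 and -0.06 without DKO node, DKO/hA-I node or DKO spleen replicate 3, and at most 0.34. Between tissues, Mfge8 was -0.06 without DKO node replicate 1 and 0.27 without DKO node replicate 2. Mertk in DKO mice was -0.0036 with limma voom, -0.16 without DKO node replicate 3, -0.03 without DKO spleen replicate 2, -0.09 with the spleen labels exchanged and 0.25 without DKO node replicate 2. Pros1 in DKO/hA-I mice was 0.18 with that exchange, 0.04 without DKO/hA-I node replicate 3, 0.07 without DKO/hA-I spleen replicate 1 and -0.08 without DKO/hA-I spleen replicate 2. For these the cause was not tested.

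All genes called in lymph node were 962, but 1967 with DESeq2, 2253 in the 12-library fit and 115 to 2245 with a library left out. In spleen 1 gene became 5 with DESeq2, 167 without DKO replicate 1 and 515 with the animal code as a block, which called no member (Gas6 edgeR adjusted p = 0.0949). The difference of genotype effect between tissues had 487 genes, but 973 with DESeq2, 253 with limma voom and 753 with the spleen labels exchanged, and the tissues of DKO mice 2204 against 3325 from their 6 libraries alone. Pathway genes called in lymph node were 42 with DESeq2, 44 in the 12-library fit and 15 with the replicate block. Tyro3 rests on 22 to 56 counts per library, which limits its precision.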
